A study of Mus musculus with 36 samples.

Results

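The genes described here are the protein genes of the cytosolic ribosome, the particle on which all nuclear-encoded mRNAs are translated. They were taken by symbol, as Rps, Rpl or Rplp followed by a number and at most 1 letter, and kept where the mean level over all libraries was at least 1 FPKM (fragments per kilobase of exon, scaled to the mapped fragments of the library). Of the 27562 genes in the expression table, 80 symbols matched and 71 passed this minimum. These 71 members comprised 39 genes of the large subunit, 29 of the small subunit and the 3 genes of the stalk, Rplp0, Rplp1 and Rplp2. The symbol rule does not take Rpsa, Fau, Rack1 or Rps3a1, among others that also belong to the ribosome, and it does take Rpl6l and Rps4l, which the GENCODE annotation classes as pseudogenes. The 9 genes below the minimum were Rps27 (0.937 FPKM), Rps12 (0.855), Rpl38 (0.778), Rpl36a (0.584), Rpl17 (0.525), Rpl10a (0.268), Rpl39l (0.145), Rpl3l (0.136) and Rpl24 (0.035). Just inside it were Rpl12 (1.20 FPKM), Rps23 (1.47), Rpl37 (1.63), Rps13 (1.79) and Rps16 (1.89).

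RNA was sequenced from sorted lung alveolar macrophages (AΦ) and monocytes of chimeric mice that breathed filtered air (FA) or concentrated fine particles from ambient air (PM2.5) for 4 or 32 weeks. All recipients were male C57BL/6J mice (CD45.2) aged 7 to 8 weeks that were irradiated with the chest shielded by lead, given busulfan and transplanted with marrow of B6.SJL-Ptprc a Pepc b/BoyJ mice (CD45.1), so every group, FA included, carries this conditioning. At 4 weeks the groups were CD45.2 AΦ, tissue-resident by origin (TR-AΦ), and CD45.2 monocytes. At 32 weeks they were TR-AΦ, marrow-derived CD45.1 AΦ (BM-AΦ) and 2 monocyte populations labelled only as 1 and 2, taken to be of donor (CD45.1) and host (CD45.2) origin because the AΦ carry those numbers. Each of these 6 populations was sampled under FA and under PM2.5, giving 12 groups of 3 libraries and 36 libraries in all, and p-values measure the spread between these libraries. Populations of 1 time and exposure may come from the same mice, to which the labels do not tie the library numbers, and the main tests treat the libraries as separate. At 32 weeks the libraries numbered 2 had the highest red cell marker sum in each of the 8 groups (17.7 to 85.8 FPKM, against 0.0 to 19.5 in the others); with the number as a block within time and exposure, 42 members passed between the cell types at 4 weeks in place of 39, and 57 at 32 weeks, as without it. BM-AΦ and TR-AΦ differ in the donor strain as well as in origin, and the effects of strain, of transplantation and of origin cannot be told apart.

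The sorted populations matched their names: Siglecf had a median of 113 FPKM in AΦ against 0.751 in monocytes, Plet1 578 against 2.16, Ly6c2 0.117 against 258 and Ccr2 6.11 against 274. Over 10 AΦ markers, the summed level was 6549 to 14062 FPKM in AΦ and 263 to 1592 in monocytes. The methods state a nominal depth, but read totals are not part of the table, so the depth of each library is not known here. The FPKM values of all genes summed to 1839580 to 2580780 per library in AΦ and 2320650 to 3339020 in monocytes, a difference that matters below because the members are compared on this scale.

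Each ribosome holds 1 copy of nearly every ribosomal protein, apart from the stalk proteins P1 and P2, which bind as dimers to P0 and recruit the elongation factors. The genes are among the most highly expressed in most cell types, and their mRNAs carry a 5′-terminal oligopyrimidine (TOP) tract, a run of C and U that begins with a C at the first base, through which mTOR signalling and the RNA-binding protein LARP1 control their translation together. In mammalian genomes these genes have left many processed pseudogenes, intronless DNA copies of their mRNAs that can be almost identical in sequence to the parent, and in a short-read experiment such copies compete with the parent for reads. Blood monocytes and alveolar macrophages are related myeloid cells, the former short-lived and migratory and the latter long-lived and self-renewing in the airspace.

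The TOP tract could be read at the annotated start sites of 50 members (RefSeq, GRCm38.p6). A C at the first transcribed base followed by at least 4 bases that were each C or T, searched on the strand of the gene only, stood at a start site of 11 of these 50 members (22.0%), against 813 of 27025 genes with a promoter entry (3.01%). Within 10 bases on either side of the start, the same run was found for 60% of the members and 34.4% of all genes. The windows below run from 10 bases before the start to 20 bases from the start onward, with the pyrimidine run in capitals; the first 3 genes have it and the last 2, of a stalk protein and of the most abundant member, do not.
Rps6, chr4:86857348-86857377, minus strand: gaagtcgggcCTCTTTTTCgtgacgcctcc
Rps18, chr17:33955646-33955675, minus strand: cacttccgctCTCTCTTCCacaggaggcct
Rplp2, chr7:141447641-141447670, plus strand: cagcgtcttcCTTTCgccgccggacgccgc
Rplp0, chr5:115559457-115559486, plus strand: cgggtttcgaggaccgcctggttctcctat
Rpl41, chr10:128549149-128549178, minus strand: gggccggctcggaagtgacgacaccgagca
A window without the run says only that these letters are not at the annotated base.

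Although the proteins are needed in equal numbers, the levels of the 71 members ranged from 1.20 to 1054 FPKM. Rpl41, the smallest protein of the ribosome, had the highest mean over the 36 libraries, followed by Rplp1 (912), Rps26 (648), Rpl29 (557) and Rpl32 (555). In total 27 members were at 100 FPKM or more, 26 between 10 and 100 and 18 under 10. Core proteins were found in the lowest class, among them Rps6, the small-subunit protein phosphorylated by S6 kinase, at 3.91 FPKM, and Rps16 at 1.89. Rps29 and Rps23 were each listed at 0 in 3 libraries, and Rpl12, Rpl37 and Rpl37a in 1 library each.

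Many of the low members had near-identical copies at high levels. Among the 18 members under 10 FPKM, Rps27l had none, and the summed copies of Rpl27 (5.21 FPKM), Rpl7a (6.30) and Rps13 (19.1) were low as well. A copy was defined as another annotated gene sharing at least 100 windows of 50 bases with the transcripts of the member. By this definition the 80 matched genes had 411 copies in the annotation, 61 of the 71 members had at least 1, and the summed copies of 41 members held more FPKM than the member itself. Rps23, at 1.47 FPKM, had the copy Rps23-ps1 at 2673 FPKM, and Rpl37a, at 2.31, had Gm4149 at 1098. Rps28 stood at 63.3 FPKM beside Gm10443 at 1154. Rpl34 stood at 269 FPKM beside Rpl34-ps1 at 1201. For Rps6 the copy Rps6-ps4 was at 440 FPKM, and for Rps16 the copy Rps16-ps2 was at 503. The median level was 13.3 FPKM among the 41 members whose copies were above them, 227 among the 20 whose copies were below, and 101 among the 10 without a copy.

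The sequences show how little separates a member from its copy. The first 90 coding bases of 57 pairs were compared; 36 pairs were identical, 18 differed at 1 to 3 bases and 3 could not be aligned without a gap. Rps23 and Rps23-ps1 belong to the identical pairs over these bases, while 48.3% of the 50-base windows of the Rps23 transcript are found at no other annotated gene. Rplp1 and Gm10073, at 912 and 779 FPKM, differ at the 2 bases in capitals.
Rps23: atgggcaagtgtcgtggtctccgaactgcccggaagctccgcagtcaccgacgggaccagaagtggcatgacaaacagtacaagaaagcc
Rps23-ps1: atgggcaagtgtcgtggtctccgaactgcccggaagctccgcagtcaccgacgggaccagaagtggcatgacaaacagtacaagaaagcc
Rps6: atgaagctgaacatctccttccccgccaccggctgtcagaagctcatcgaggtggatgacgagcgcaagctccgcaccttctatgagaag
Rps6-ps4: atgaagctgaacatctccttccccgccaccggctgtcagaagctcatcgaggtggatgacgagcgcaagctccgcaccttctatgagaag
Rplp1: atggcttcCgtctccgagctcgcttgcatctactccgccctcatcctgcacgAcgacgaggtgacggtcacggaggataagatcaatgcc
Gm10073: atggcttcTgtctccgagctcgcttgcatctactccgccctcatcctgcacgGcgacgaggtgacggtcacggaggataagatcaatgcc
How reads matching several loci were assigned is not given in the sources used here, so a level of a member with copies is uncertain and differences between genes in level are not read as differences in protein or mRNA supply. Across the 71 members, log2 level and the share of 50-base windows found at no other annotated gene had Pearson's r = 0.24 and, for windows of 100 bases, r = 0.41; the genes are not independent replicates, since they share libraries and copies.

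**Figure D1:**
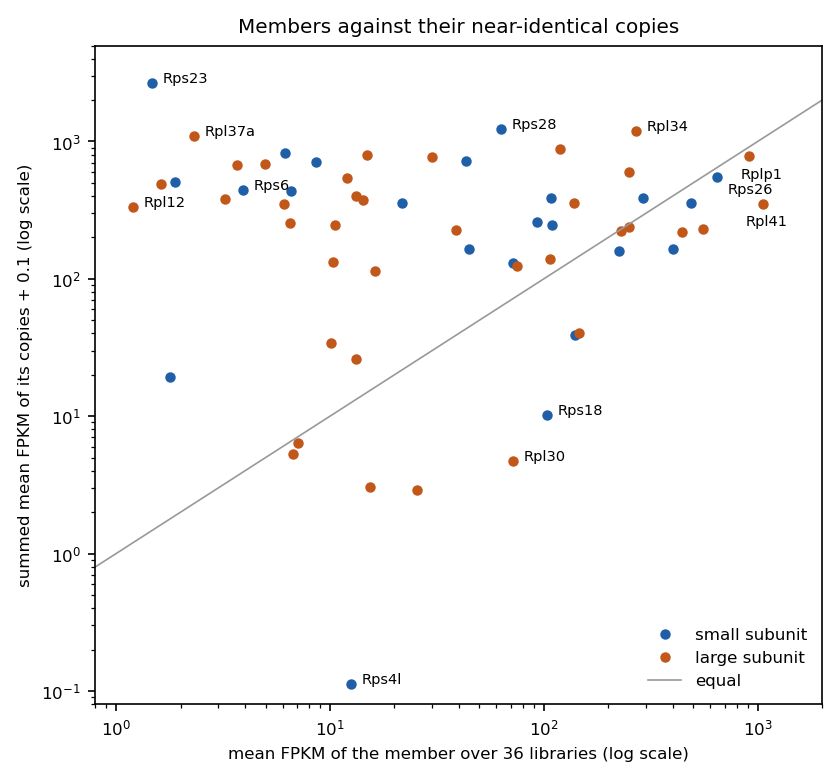
Mean FPKM over the 36 libraries of each member with a copy (horizontal axis, log scale) against the summed mean FPKM of its near-identical copies plus 0.1 (vertical axis, log scale); small-subunit genes are blue, large-subunit and stalk genes orange, and the line marks equality. Of the members, 41 lie above the line, Rps23 the farthest, while Rpl41 and Rplp1 lie below it and Rps4l stands alone at the bottom.

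The first comparison the design allows is between the 2 cell types. On the deposited FPKM scale most ribosomal protein genes were lower in AΦ than in monocytes, while under 1 of 4 other scalings, described below, as few as 7 of the 71 were lower and 9 were higher at 4 weeks. Summed over the 71 members, the level was 6814 to 9668 FPKM in the 18 AΦ libraries (median 8140) and 9844 to 14883 FPKM in the 18 monocyte libraries (median 11464), without overlap. The annotated copies of the 80 matched genes gave 13359 to 24101 FPKM in AΦ (median 20606) and 26783 to 43310 in monocytes (median 32504), again without overlap. As a share of all FPKM in the library, the members made up 0.279% to 0.471% in AΦ and 0.357% to 0.518% in monocytes, and these ranges overlapped. In bulk samples fewer cells of a type and less RNA per cell cannot be told apart.

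**Figure D2:**
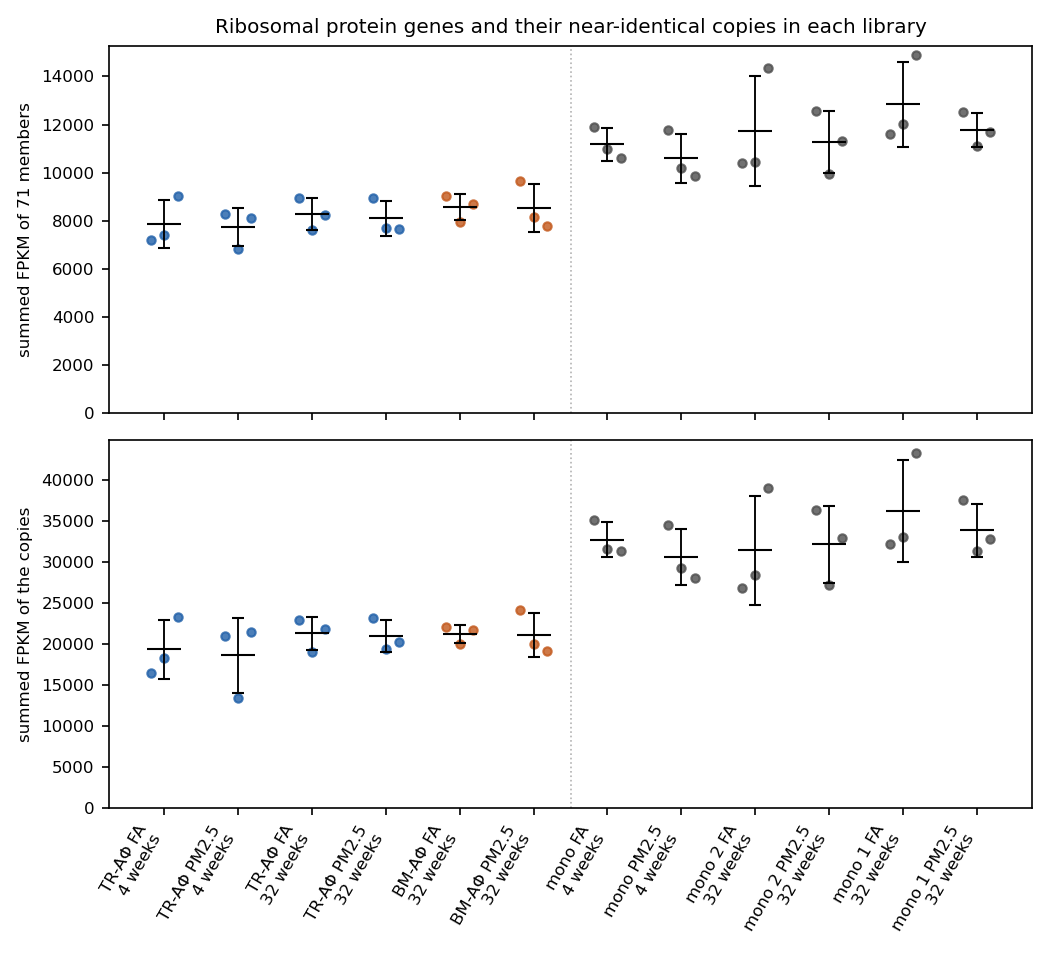
Summed FPKM of the 71 members (upper panel) and of the annotated copies of the 80 matched genes (lower panel) in each library; points are libraries, bars the mean and SD of 3, with AΦ left and monocytes right of the dotted line. The highest AΦ library, at 9668 FPKM for the members, lies below the lowest monocyte library, at 9844.

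Gene by gene, 38 of the 71 members were lower in AΦ at 4 weeks and 1, Rps4l, was higher, at an adjusted p under 0.05 (limma on log2(FPKM + 1), Benjamini-Hochberg over 13307 genes). Over all genes tested, 25.5% were called lower and 22.6% higher. At 32 weeks 54 members were lower and 3 higher (Rps4l, Rps29 and Rpl12), where 29.4% of all genes were called lower and 31.6% higher. The median difference of the members was -0.44 on the log2 scale at 4 weeks and -0.53 at 32 weeks, against -0.02 and 0.02 over all genes tested. In 24 members at 4 weeks every AΦ library lay below every monocyte library, as 16.1% of all genes did, and in 12 members at 32 weeks, as 9.30% of all genes did. Altogether 37 members were lower at both times, 17 at 32 weeks only, 1 at 4 weeks only and 13 were called at neither time. Whether the difference itself changed between the times was tested in CD45.2 cells, and no member passed (4 had an unadjusted p under 0.05), while 7.88% of all genes did.

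The absolute size of the fall depends on how libraries are scaled, because the FPKM of AΦ libraries summed to less. With each library scaled to the same FPKM sum, the median of all genes shifted by 0.23 at 4 weeks and 0.24 at 32 weeks. On that scale 18 members were lower and 4 higher at 4 weeks, with 33 lower and 7 higher at 32 weeks. Of all genes, 15.98% were called lower at 4 weeks and 20.12% at 32 weeks, against 25.35% and 46.48% of the members. When the sums were taken over loci of at least 350 bases, a scaling chosen after the data were seen, 7 members were lower and 9 higher at 4 weeks, with 28 lower and 9 higher at 32 weeks. The lower members were then 9.86% of the members at 4 weeks, below the 13.5% of all genes called lower. At 32 weeks the shares were 39.4% and 18.3%. Loci under 350 bases held 34.0% to 40.9% of the FPKM sum in AΦ and 23.5% to 40.3% in monocytes. Quantile normalization gave 21 lower and 2 higher at 4 weeks, and median-ratio scaling 32 lower and 1 higher, where 23.4% and 25.2% of all genes were called lower. The position of the members relative to the other genes of the same fit kept its sign in all 5 scalings. Equal sums, sums over longer loci and median-ratio scaling each divide a library by 1 factor. That moves members and other genes almost alike, so these scalings could hardly change the position and are no check of it. Quantile normalization can change it, and gave the smallest difference at both times. At 4 weeks the median member minus the median of all genes was -0.42 as deposited, -0.37 with equal sums, -0.34 with sums over longer loci, -0.25 after quantile normalization and -0.40 with median-ratio scaling. At 32 weeks these differences were -0.55, -0.53, -0.54, -0.51 and -0.57.

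Both subunits held many lower members. Of the large-subunit genes 19 of 39 were lower at 4 weeks and 32 of 39 at 32 weeks, with medians of -0.41 and -0.55. In the small subunit 18 of 29 were lower at 4 weeks and 21 of 29 at 32 weeks, with medians of -0.56 and -0.52. The difference between the subunits was not tested. Among the 10 members without a copy, where the assignment of reads to copies is not in question, 8 were lower at 4 weeks and 9 at 32 weeks, with medians of -0.59 and -0.57. Members with a mean of at least 20 FPKM were called lower in 32 of 41 cases at 4 weeks and 38 of 41 at 32 weeks, and those under 20 FPKM in 6 of 30 and 16 of 30.

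In the small subunit, Rps19, the protein whose human gene is mutated in Diamond-Blackfan anaemia, ran from 20 to 34.6 FPKM in AΦ and from 48.4 to 85.2 in monocytes at 4 weeks. At 32 weeks the ranges were 18.1 to 37.5 and 43.4 to 81.1 FPKM, so the cell types were separate at both times. The log2 differences were -1.14 (SE 0.18, limma adjusted p = 5.99e-06) and -0.90 (SE 0.127, adjusted p = 7.36e-07). Rps24, also a Diamond-Blackfan anaemia gene, ran from 82.8 to 247 FPKM in AΦ and from 311 to 410 in monocytes at 4 weeks, with a log2 difference of -1.17 (SE 0.228, adjusted p = 0.000107). Its ranges touched at 32 weeks, when the highest AΦ library reached 351 FPKM and the lowest monocyte library stood at 327. Rps9, a protein of the 40S body, was at a median of 269 FPKM in AΦ and 562 in monocytes at 32 weeks, with a log2 difference of -1.03 (SE 0.105, adjusted p = 2.43e-09).

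Among the members next in size were Rpl10, Rpl26, Rps21 and Rps15a. Rpl10, the protein that completes the large subunit in the cytoplasm, had medians of 6.56 FPKM in AΦ and 16 in monocytes at 4 weeks (log2 difference -1.02, SE 0.239, limma adjusted p = 0.000832). Rpl26 had medians of 85.0 and 170 FPKM (-0.92, SE 0.129, adjusted p = 9.95e-07), and its ranges did not overlap at 4 weeks, while at 32 weeks AΦ reached 144 FPKM and monocytes went down to 118. At 32 weeks the largest negative difference belonged to Rps21, with a range of 3.08 to 10 FPKM in AΦ and 9.14 to 26.2 in monocytes (-1.23, SE 0.224, adjusted p = 3.05e-05); at 4 weeks the same gene gave -0.49 (adjusted p = 0.211). Rps15a gave -1.08 at 32 weeks (SE 0.173, adjusted p = 4.85e-06) and -0.56 at 4 weeks (adjusted p = 0.0612).

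Among the members without a copy, Rpl32 ran from 367 to 467 FPKM in AΦ and from 564 to 754 in monocytes at 4 weeks, and from 372 to 520 and 553 to 915 at 32 weeks. The cell types did not overlap at either time, and the log2 differences were -0.64 and -0.63. Rpl39, a small protein lining the exit tunnel of the nascent chain, differed by -0.41 at 4 weeks and -0.45 at 32 weeks (limma adjusted p = 0.0091 and 0.000118). Rps4x, the X-linked parent gene of Rps4l, does have copies, 5 in the annotation, and differed by -0.70 and -0.69 and did not overlap.

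**Figure D3:**
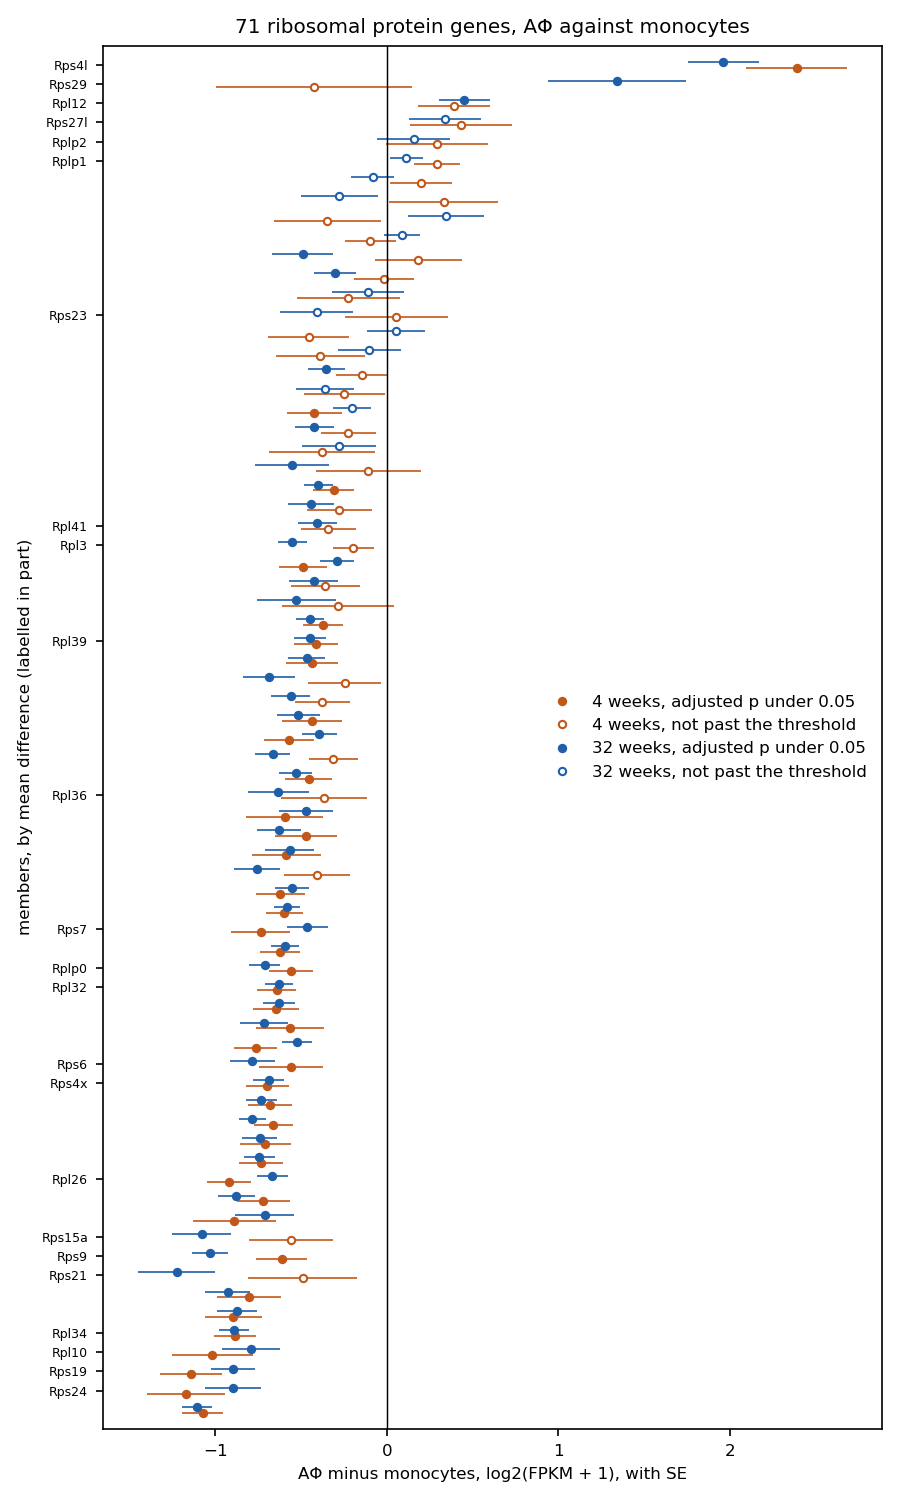
Difference of AΦ minus monocytes in log2(FPKM + 1), with its SE, for each of the 71 members at 4 weeks (orange) and 32 weeks (blue); filled points passed an adjusted p of 0.05, and genes described in the text are labelled in part. On this scale most points lie left of 0, down to -1.23 for Rps21 at 32 weeks, and Rps4l lies at 2.39 and 1.96 on the right; with library sums over loci of at least 350 bases 7 members were lower and 9 higher at 4 weeks.

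The stalk genes did not follow 1 pattern. Rplp0, which anchors the stalk on the large subunit, was lower in AΦ at both times, at 165 to 194 FPKM against 205 to 308 at 4 weeks (log2 difference -0.56, limma adjusted p = 0.000591) and 151 to 193 against 198 to 413 at 32 weeks (-0.71, adjusted p = 1.04e-07). Rplp1, which encodes P1, was at 802 to 986 FPKM in AΦ and 574 to 906 in monocytes at 4 weeks (0.30, adjusted p = 0.0723), and at 855 to 1217 and 753 to 1090 at 32 weeks (0.11, adjusted p = 0.304). Rplp2, which encodes P2, gave 0.29 and 0.16, neither past the threshold. With their copies added, Rplp1 gave 0.19 and 0.16 and Rplp2 gave -0.28 and -0.36, of which only the last passed (adjusted p = 0.00414). The copies of Rplp2 include Wdr89, annotated as a protein-coding gene, at a mean of 246 FPKM against 10.6 for Rplp2. How much of that level belongs to Rplp2 is not known. Rpl41 gave -0.34 at 4 weeks (adjusted p = 0.0836) and -0.40 at 32 weeks (adjusted p = 0.00308), Rpl3, whose extension reaches toward the peptidyl transferase centre, gave -0.20 (adjusted p = 0.183) and -0.55 (adjusted p = 2.59e-06), and Rps6 gave -0.56 (adjusted p = 0.0148) and -0.78 (adjusted p = 1.03e-05).

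To ask which members departed from the others, each library was centred on the median of its members and the test was repeated. At 4 weeks 14 members were higher and 2 lower in AΦ relative to the median member, Rps19 among the latter, on a scale where 50.5% of all genes were called higher and 9.95% lower. At 32 weeks 21 were higher and 5 lower, among them Rps21, Rps15a, Rps9 and Rpl34, against 62.6% and 11.2% of all genes. The balance of higher and lower follows the centring and is not read as a result: relative to the mean of the members, 9 were higher and 17 lower at 4 weeks, and 11 higher and 25 lower at 32 weeks. At 4 weeks that centring gave 0.69 for Rplp1, 0.83 for Rps27l and -0.74 for Rps19, all past the threshold. Relative to the median, Rplp1 was 0.93 above the median member at 4 weeks (SE 0.121, limma adjusted p = 2.66e-07) and 0.77 above it at 32 weeks (adjusted p = 7.32e-09), and Rplp2 0.93 and 0.82 (adjusted p = 0.00297 and 0.000244). Rps27l, a paralogue of Rps27 known as a p53 target, was 1.07 and 1.0 above it (adjusted p = 0.00492 and 0.000256), while its uncentred differences of 0.43 and 0.34 did not pass. Without the libraries numbered 1, or without those numbered 2, 10 members passed in place of 16 at 4 weeks. Rps19 did not pass without the libraries numbered 2 (adjusted p = 0.0812), nor Rps27l without those numbered 1 (adjusted p = 0.116). At 32 weeks Rps21 and Rps15a did not pass without the libraries numbered 0 (adjusted p = 0.0517 and 0.0891) or 2 (0.202 and 0.231), and Rpl34 without those numbered 1 (0.0884) or 2 (0.351).

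Many copies were lower in AΦ on the deposited scale too, and adding them to their members raised the number of lower members and turned single genes. Of the 330 copies in the table, 150 were tested, and 70 were lower and none higher at 4 weeks, with 95 lower and 2 higher at 32 weeks, where 25.5% and 29.4% of all genes were called lower. With equal library sums 38 were lower and 4 higher at 4 weeks and 62 lower and 4 higher at 32 weeks. Of all genes, 15.98% and 20.12% were called lower with these sums. With sums over loci of at least 350 bases 24 were lower and 8 higher and then 49 lower and 5 higher. The shares of all genes called lower were 13.5% and 18.3% there. With the copies added to each member, a step chosen after the data were seen, 58 members were lower and 1 higher at 4 weeks, against 25.5% of all genes called lower, and 63 were lower and 1 higher at 32 weeks, against 29.1%. The members' medians were then -0.66 and -0.61. Rps23 gave -1.0 and -0.79 with its copies (limma adjusted p = 1.83e-06 and 2.07e-07), where the member alone was called at neither time. Rps29, listed at 0 in 3 monocyte libraries at 32 weeks and otherwise at 1.69 to 11.1 FPKM there, was called higher in AΦ at 32 weeks on its own (1.34, SE 0.403, adjusted p = 0.00529) and lower with its copies (-1.03, adjusted p = 0.000215). Rpl12, at medians of 1.46 FPKM in AΦ and 0.766 in monocytes, turned in the same way, from 0.45 (SE 0.149, adjusted p = 0.0104) to -0.36 (adjusted p = 0.0292). On its own, Rps29 did not pass without the libraries numbered 0 (0.68, adjusted p = 0.303), and Rpl12 did not pass without those numbered 1 or 2 (adjusted p = 0.055 and 0.0512). Each of the 2 genes passed in 36 of 39 alternatives, counting the fit with copies, where the sign turned. The highest limma adjusted p of Rpl12, 0.415, came from a further alternative. Rps4l was the 1 member called higher in AΦ at both times with and without copies.

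Markers of other cells moved with the cell types as well. The summed level of 8 neutrophil markers was 10.4 to 64.1 FPKM in AΦ and 31.8 to 1120 in monocytes. It was highest in a PM2.5 monocyte library at 4 weeks, and Ly6g was at 0 in 34 of the 36 libraries. By medians, Csf3r (4.44 in AΦ and 33.7 in monocytes), Mmp8 (8.78 and 15.8) and S100a9 (0.353 and 1.26) were lower in AΦ. S100a8 (3.12 and 0) was higher in AΦ, and Retnlg, Ly6g, Ngp and Camp had medians of 0 in both. Without the library at 1120 FPKM 39 members were called at 4 weeks, as with it. The other 4-week monocyte library numbered 2, at 395 FPKM, stayed in that fit. The 4-week monocyte libraries numbered 0 and 1 had 70.6 to 87.1 FPKM. The 10 lung epithelial and endothelial markers summed to 46.1 to 183 FPKM in AΦ and 13.9 to 57.9 in monocytes. Epcam held most of that difference, with medians of 50.3 FPKM in AΦ and 0.652 in monocytes. Scgb1a1 (9.33 and 3.27), Cldn18 (0.576 and 0.466), Krt8 (0.0929 and 0.0256) and Sftpb (0.225 and 0.212) were also higher in AΦ by their medians. Pecam1 (1.12 and 9.76), Cldn5 (1.18 and 2.36), Cdh5 (0.514 and 1.47), Sftpc (4.88 and 5.35) and Sftpa1 (0.452 and 0.710) were lower in AΦ. The 10 T and NK cell markers summed to 0.237 to 10.4 FPKM in AΦ and 0.870 to 90.4 in monocytes. The 4-week monocyte libraries numbered 2 had 75.7 (FA) and 90.4 (PM2.5), against 4.60 to 13.3 in those numbered 0 and 1. Among 4-week AΦ, B cell markers summed to 89.7 (FA) and 70.0 (PM2.5) in the libraries numbered 2. Those numbered 0 and 1 had 1.24 to 2.24. The part of all these markers in the difference of the ribosomal protein genes was not tested.

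The translation machinery around the ribosome was read from lists of its known factors, with counts on the deposited scale. Among 7 cytosolic ribosomal genes that the symbol rule leaves out, 4 were lower in AΦ at both times, among them Rpsa (-0.64 and -0.66 at 4 and 32 weeks), Rack1 (-0.57 and -0.62) and Rpl36al (-0.92 and -0.61), on a scale where 25.5% and 29.4% of all genes were lower. With sums over loci of at least 350 bases none of the 7 was lower and 1 was higher at 4 weeks, and 2 were lower and 1 higher at 32 weeks. Rpl7l1, a Rpl7 paralogue, was higher at 32 weeks (0.63, limma adjusted p = 0.000536). Of 7 elongation factors 3 were lower and 1 higher at 4 weeks, and 4 lower and 3 higher at 32 weeks. Eef1a1, which delivers aminoacyl-tRNA, gave -0.46 and -0.45, and Eef2, the translocase, -0.39 and -0.42, while Eif5a, which relieves stalled ribosomes, gave 0.45 and 0.95. Of 26 initiation factors 9 were lower and 1 higher at 4 weeks, with 8 lower and 4 higher at 32 weeks. The eIF3 subunits differed in sign, with Eif3f at -0.94 and -0.89, Eif3h at -0.74 and -0.62 and Eif3b at 0.35 and 0.46, all past the threshold. With equal library sums the initiation factors split the other way, with 4 lower and 6 higher at 4 weeks and 4 lower and 13 higher at 32 weeks, and with those sums neither Eef1a1 nor Eef2 passed at either time. Pabpc1, the cytoplasmic poly(A)-binding protein and a TOP mRNA, gave -0.79 and -0.67. Of 9 tested factors of the nascent chain and the TOP mRNAs, 2 were lower at 4 weeks (Larp1, -0.47, and the TOP transcript Snhg8, -0.93), and 5 were lower and 1 higher at 32 weeks, among them Tpt1 (-0.70) and Gas5 (-1.46). With equal library sums none of these 9 was called at 4 weeks, and 3 were lower and 1 higher at 32 weeks, and with sums over loci of at least 350 bases none was lower and 1 higher at 4 weeks.

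The factors that build ribosomes were more often higher than lower in AΦ, under all 5 scalings. Over all genes tested on the deposited scale, 22.6% were called higher and 25.5% lower at 4 weeks. At 32 weeks the shares were 31.6% and 29.4%. Of 27 tested biogenesis factors 12 were higher and 2 lower in AΦ at 4 weeks, and 19 higher and 1 lower at 32 weeks, with medians of 0.37 and 0.39. Over the 4 other scalings 15 to 20 were higher and 1 lower at 4 weeks, and 19 to 23 were higher and 1 to 2 lower at 32 weeks. Equal sums and sums over longer loci also shifted the median of all genes up, by 0.23 to 0.36. Counts of higher genes under them, here and below, therefore rise with the whole scale. The share of all genes called higher under them is not reported here. Nop2, an rRNA methyltransferase of the 60S pathway, gave 1.72 and 1.15 (limma adjusted p = 1.05e-08 and 1.56e-08), Rrs1, a factor of 5S particle assembly, 1.68 and 1.27, and Tsr1, a 40S maturation factor, 1.17 and 1.15. Rrp1b gave -1.24 and -0.66. Among 10 genes of RNA polymerase I transcription, 2 were higher and 2 lower at 4 weeks and 3 higher at 32 weeks, and Myc, a driver of rRNA synthesis included there, gave 2.46 and 1.5. Of 14 genes of the mTOR and S6 kinase pathway, 2 were higher and 3 lower at 4 weeks and 4 higher and 5 lower at 32 weeks, while with equal library sums 5 were higher and 1 lower and then 8 higher and 2 lower. Rragc, a Rag GTPase, gave 0.91 and 0.88, Akt1s1, an mTORC1 inhibitor, 0.92 and 1.07, Rptor -0.54 and -0.62 and Eif4ebp2 -0.79 and -0.75. The proteins of the mitochondrial ribosome, a separate set of nuclear genes, were higher in AΦ in 25 of 75 tested at 4 weeks and lower in none, and higher in 53 and lower in 2 at 32 weeks, with medians of 0.36 and 0.45, and over the 4 other scalings 28 to 60 were higher at 4 weeks and 49 to 68 at 32 weeks. None of the 69 mitochondrial ribosomal genes with a promoter entry had the TOP run at its start, where 3.01% of all genes had it. Within 10 bases of the start 31 of them had it (44.9%), against 34.4% of all genes.

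The genes whose level was most like the mean of the members over the 36 libraries were copies. By Pearson's r on log2(FPKM + 1), the first 5 were Rps16-ps2 (0.957), RP23-179K7.3 (0.956), Rps15a-ps7 (0.956), Rpl34-ps1 (0.955) and Rps23-ps1 (0.952). The first genes in this order that were no copies were Eif3f (0.944) and Rps3a1 (0.943), named after their values were seen. The 36 points fall into the 2 cell types, which these values span; within the 18 AΦ libraries r was 0.54 for Eif3f and 0.64 for Rps3a1, and within the 18 monocyte libraries 0.86 and 0.79.

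Rps4l was the member that varied most against the others, with an SD of 1.66 on the log2 scale relative to the median member over the 36 libraries, ahead of Rps29 (1.28) and Rps27l (0.76). It lies on chromosome 6 at 148354656 to 148355598 on the plus strand (mm10, GENCODE), has 2 exons, and sits within an intron of Tmtc1 on the opposite strand, where no exon of Tmtc1 overlaps it. The annotation calls it a transcribed processed pseudogene. The 792 coding bases of Rps4x, placed on the Rps4l transcript without gaps, had 163 mismatches to it (79.4% identity). Whether Rps4l keeps an open reading frame was not tested. Of the first 90 bases, 15 differ and are given in capitals, which is far from the near-identical pairs shown for Rps23 and Rplp1.
Rps4x: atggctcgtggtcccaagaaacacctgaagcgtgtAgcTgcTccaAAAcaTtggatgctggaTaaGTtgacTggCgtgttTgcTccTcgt
Rps4l: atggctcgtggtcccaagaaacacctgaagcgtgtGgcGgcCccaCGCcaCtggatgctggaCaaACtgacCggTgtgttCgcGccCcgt

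Rps4l separated BM-AΦ from TR-AΦ at 32 weeks, populations in which strain, transplantation and origin cannot be told apart. At 4 weeks it measured 19.1, 14.3 and 38.9 FPKM in TR-AΦ under FA and 44.4, 31.0 and 28.4 under PM2.5. At 32 weeks TR-AΦ gave 38.1, 23.9 and 23.2 FPKM under FA and 29.7, 27.1 and 29.1 under PM2.5, whereas BM-AΦ gave 7.13, 9.10 and 9.72 under FA and 3.30, 5.29 and 3.47 under PM2.5. Every BM-AΦ library was below every TR-AΦ library. Monocytes were low throughout: 3.60, 4.87 and 4.20 FPKM (FA) and 9.71, 5.16 and 1.75 (PM2.5) at 4 weeks. At 32 weeks monocytes 1 gave 4.02, 1.71 and 3.93 FPKM under FA and 1.02, 1.89 and 1.54 under PM2.5. Monocytes 2 gave 7.78, 3.23 and 1.23 FPKM under FA and 2.37, 3.16 and 3.72 under PM2.5. The ranges of BM-AΦ and of the monocytes overlapped. AΦ exceeded monocytes by 2.39 at 4 weeks (SE 0.292, limma adjusted p = 1.06e-07), with no overlap, and by 1.96 at 32 weeks (SE 0.206, adjusted p = 4.16e-09), where AΦ of both origins are in the mean.

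Between BM-AΦ and TR-AΦ at 32 weeks, Rps4l differed by -2.08 on the log2 scale (SE 0.213, limma adjusted p = 0.000364), with means of 6.33 and 28.5 FPKM. It was the 1 member of 71 called in this comparison, in which 0.182% of all genes were called lower, and 3 other members had an unadjusted p under 0.05. Leaving out the libraries numbered 0 in every AΦ group gave an adjusted p of 0.110 for Rps4l, so that no member was called; leaving out any single library kept the call. Rps4x, in the same libraries, ranged from 159 to 187 FPKM in BM-AΦ and from 174 to 181 in TR-AΦ. AΦ markers summed to 7151 to 14062 FPKM in BM-AΦ and 7810 to 13132 in TR-AΦ, monocyte markers to 259 to 398 and 112 to 382, and 8 B cell markers to 0.433 to 81.6 and 3.76 to 24.0. Between monocytes 1 and monocytes 2 the difference of Rps4l was -0.41 (adjusted p = 0.779).

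**Figure D4:**
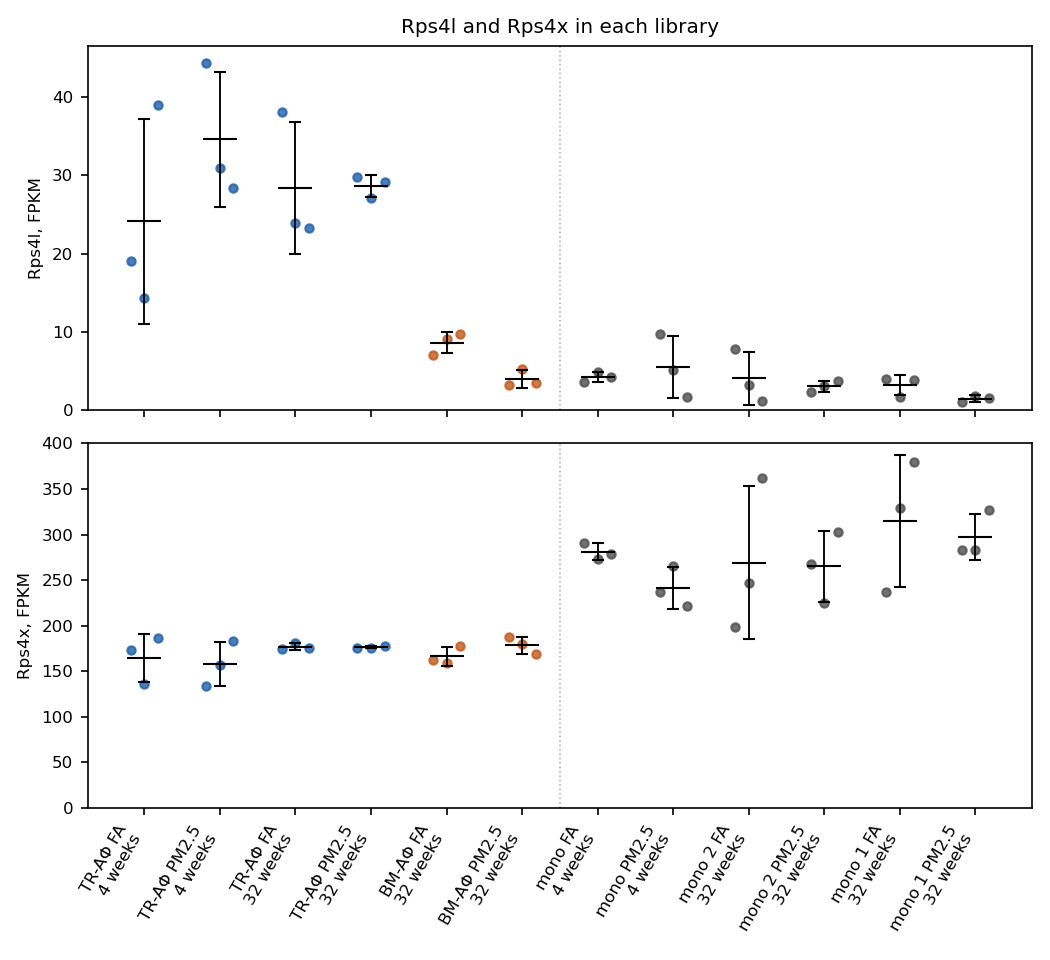
FPKM of Rps4l (upper panel) and of its parent Rps4x (lower panel) in each library; points are libraries, bars the mean and SD of 3, with TR-AΦ blue, BM-AΦ orange and monocytes grey. Rps4l averages 28.5 FPKM in TR-AΦ and 6.33 in BM-AΦ at 32 weeks, while Rps4x is at 159 to 187 FPKM in both.

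PM2.5 did not move Rps4l past the threshold. In BM-AΦ the 3 PM2.5 libraries lay below the 3 FA libraries (log2 difference -0.95, SE 0.301, unadjusted p = 0.00679, limma adjusted p = 1), and the difference between the PM2.5 effects in BM-AΦ and TR-AΦ was -1.0 (adjusted p = 1).

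No other ribosomal protein gene was called between BM-AΦ and TR-AΦ. The other 70 members had log2 differences of BM-AΦ minus TR-AΦ from -0.53 (Rps29) to 0.42 (Rps24), and the median over all members was 0.05, against 0.02 over all genes. Between monocytes 1 and monocytes 2 at 32 weeks no member was called (4 at an unadjusted p under 0.05), against 0.669% of all genes in either direction. The direction of the members depends on the scaling there, with 56 of 70 tested members above 0 in monocytes 1 minus monocytes 2 as deposited and 25 with equal library sums (medians 0.12 and -0.02).

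Age and length of exposure were compared within cells of CD45.2 origin, 32 against 4 weeks; the duration of exposure and the age of the mice cannot be told apart. In TR-AΦ no member was called under FA (2 at an unadjusted p under 0.05) or under PM2.5 (4), where 0.782% and 1.05% of all genes were called. The member medians were 0.07 and 0.02. The lowest p under FA was that of Rps6, with 4.13, 3.69 and 4.61 FPKM at 4 weeks and 2.24, 1.94 and 1.03 at 32 weeks. Its groups did not overlap, but the difference of -0.93 did not pass (SE 0.248, limma adjusted p = 0.12). Under PM2.5 the same gene gave 1.85, 2.19 and 2.89 FPKM at 4 weeks and 2.80, 3.18 and 2.23 at 32 weeks, which overlap. In CD45.2 monocytes no member was called (5 at an unadjusted p under 0.05) although 14.9% of all genes were, with a member median of 0.02 and an all-gene median of -0.05. Rpl23a came nearest, with a log2 difference of 0.84 (adjusted p = 0.0554); 8 members passed after quantile normalization and 3 after median-ratio scaling, so the count of 0 on the deposited scale does not hold under these.

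Exposure to PM2.5, the question of the study, left no member past the threshold in any of the 6 populations. In TR-AΦ at 4 weeks the member median was -0.03 (4 members at an unadjusted p under 0.05), and 0.0079% of all genes, or 1 of 12665, were called. In TR-AΦ at 32 weeks it was -0.02 (0 members), and 0.0% of all genes were called. In BM-AΦ it was -0.03 (2 members), with 0.0158% of all genes called. In monocytes it was -0.06 at 4 weeks (1 member, with 0.00778% of all genes called), -0.09 in monocytes 1 (2 members, 0.0% of all genes) and -0.05 in monocytes 2 (0 members, 0.0% of all genes). The change of the PM2.5 effect from 4 to 32 weeks in TR-AΦ and its difference between BM-AΦ and TR-AΦ had no member past the threshold either (3 and 2 at an unadjusted p under 0.05), against 0.0079% and 0.0158% of all genes.

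A few members had an unadjusted p under 0.05, and 3 of them are given as examples. Rps6 in TR-AΦ at 4 weeks was at 1.85 to 2.89 FPKM under PM2.5 and 3.69 to 4.61 under FA (log2 difference -0.64, limma adjusted p = 1), and at 32 weeks the PM2.5 libraries of TR-AΦ were at 2.23 to 3.18 and the FA libraries at 1.03 to 2.24. Rps7 in monocytes at 4 weeks gave 8.10, 8.18 and 9.47 FPKM under PM2.5 and 15.5, 12 and 13.6 under FA, without overlap (-0.61, adjusted p = 1). At 32 weeks its ranges under FA and PM2.5 overlapped in monocytes 1, at 10 to 14.7 and 8.14 to 14.3 FPKM, and in monocytes 2, at 8.33 to 12.8 and 5.10 to 8.68. Rpl36 in BM-AΦ gave 10.4, 14.1 and 12.6 FPKM under PM2.5 and 8.36, 4.20 and 9.62 under FA (0.73, adjusted p = 1). With 3 libraries a group, these tests leave differences of this size unresolved for members at a few FPKM.

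**Figure D5:**
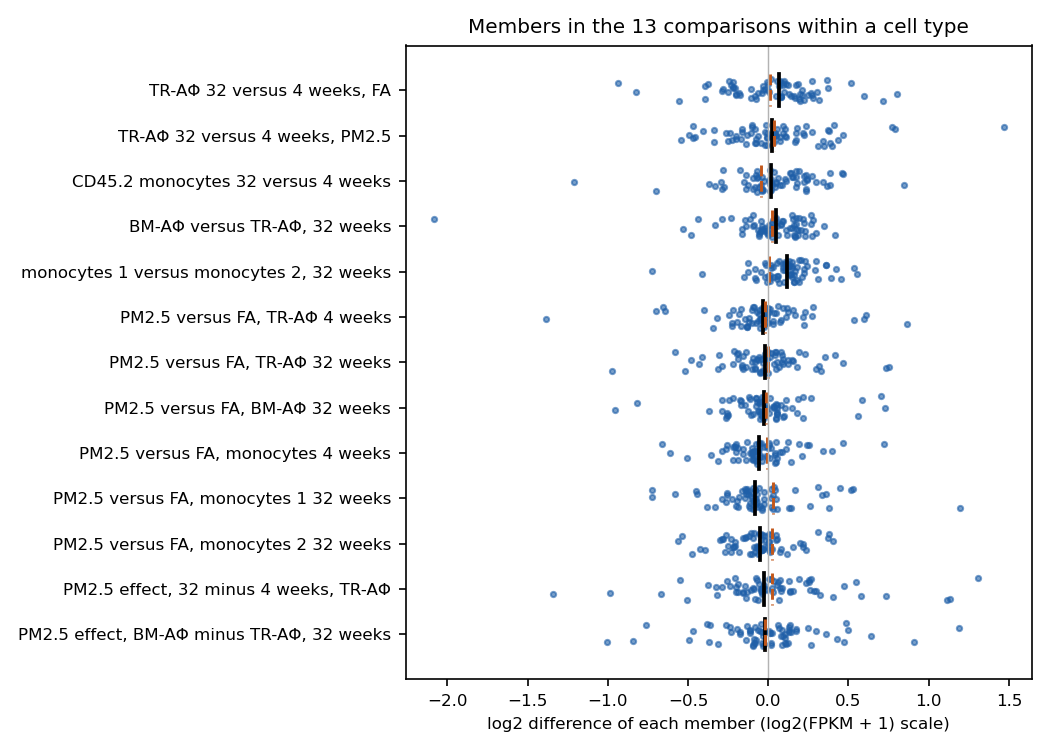
Log2 difference of each tested member (blue points) in the 13 comparisons within AΦ or within monocytes, with the member median (black bar) and the median of all genes tested (orange bar). Member medians lie between -0.09 and 0.12, and the point at -2.08 in the comparison of BM-AΦ with TR-AΦ is Rps4l, the only member called in these comparisons.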

How the data were processed

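Per the labels, libraries were made with a stranded mRNA kit. Per the study's methods, paired-end reads were trimmed, aligned to the mouse genome (mm10, GENCODE) with STAR and quantified with Cufflinks; the submitters' processing notes name STAR, Cufflinks, Cuffdiff and mm10. The authors deposited 1 table of FPKM values, 1 column per library for 36 libraries, with no counts; the methods state a nominal depth, but the depth of each library and its counting error are not known here. Columns were matched to samples by name. Members, gene lists and tests were chosen with earlier results of these data known.

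Each comparison was a limma 3.58.1 fit (R 4.3.3, trended variance) of log2(FPKM + 1), where the pseudocount of 1 understates changes of low genes. Genes averaging 1 FPKM or more over the libraries modelled were tested, with Benjamini-Hochberg adjustment and a threshold of 0.05. Differences between AΦ and monocytes came from 1 model over all 36 libraries, and those within a cell type from 1 model over its 18 libraries, so that comparisons in a model share libraries and their spread. No 2 libraries were identical.

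Transcripts, copies and coding bases came from GENCODE M21, in which 27413 of the 27562 gene IDs were found, and start sites from RefSeq. Named were up to 5 called members per direction and comparison by size, the 5 highest and 5 lowest, the 3 most variable, members listed at 0, and a fixed set (Rplp0, Rplp1, Rplp2, Rps6, Rpl41, Rps4x, Rps27, Rps27l, Rpl3, Rpl3l, Rpl39, Rpl39l, Rpl10 and Rps4l); Rps7, Rps9, Rps18, Rps28, Rpl36, Rps24 in 1 comparison and pathway genes given as examples were picked after their values were seen. Some genes that meet this rule are not reported here. Alternatives were another pseudocount, no filter, other scalings, replicate blocks, fits on fewer libraries and each library left out.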

Additional observations from a re-analysis of the deposited data

How the results depend on the processing

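Of 354 recomputed counts of called members, 333 stayed within 1.5 times the main count. The count for AΦ against monocytes at 4 weeks, 39, became 23 after quantile normalization, 22 with equal library sums, 59 with the copies added and 16 with sums over loci of at least 350 bases; at 32 weeks 57 became 37 with those sums. The change between the times went from 0 to 2 members after quantile normalization. CD45.2 monocytes at 32 against 4 weeks went from 0 to 8 after quantile normalization, 4 with equal sums, 3 with median-ratio scaling, 3 with a replicate block and 1 with only the libraries compared. TR-AΦ under FA gave 1 with a replicate block. Relative to the mean in place of the median member, 26 passed at 4 weeks in place of 16. Rps29 and Rpl12 at 32 weeks turned to -1.03 and -0.36 with their copies. Leaving out libraries gave 26 to 41 at 4 weeks, the lowest without those numbered 1, 44 to 58 at 32 weeks, 0 to 2 in CD45.2 monocytes over time, 0 to 1 in BM-AΦ against TR-AΦ, and, relative to the median member, 10 to 14 at 4 weeks and 18 to 22 at 32 weeks. The other comparisons stayed at 0. Except where stated, the causes of these changes were not tested. Same-numbered libraries of 1 time and exposure correlated in their deviations from the group means at -0.04 to 0.16 (42 pairs), below the level set for a paired main fit, although the populations may share mice; with the replicate block 42 members passed at 4 weeks and 57 at 32 weeks. Of 588 values for named members, 568 kept direction and call, 18 lost the call and 2 reversed. No count test was run, and members at a few FPKM are the least resolved.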
